A study of Homo sapiens with 36 samples.

Results

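Nucleolar ribosome biogenesis factors were followed as a list of 50 genes, matched by symbol, among the 19942 protein-coding genes of a bulk RNA-seq series in HCT116 cells, a human colorectal cancer cell line. All 50 were measured, and all 50 were among the 15415 genes with enough reads to be tested. Protein depletion used an auxin-inducible degron (AID): doxycycline switches on OsTIR1, a ubiquitin ligase component from rice, and auxin then directs it to proteins that carry the mini-AID tag, which are degraded. The 4 lines were WT, which carries no degron, UHRF1-AID, the corresponding DNMT1-AID line, and a line with both proteins tagged, UHRF1-AID/DNMT1-AID (called the double line here). UHRF1 recognises hemimethylated DNA and recruits DNMT1, which copies methylation onto new strands. Cells of all 4 lines, WT included, were given doxycycline with auxinole for 1 day and then doxycycline (2 µg/mL) with auxin (500 µM), refreshed every 2 days, and RNA was taken on days 2, 6 and 8. Each of the 12 groups had 3 libraries, and days 0 and 4 were not analysed here, so a response to treatment and a difference already present in an edited line cannot be told apart. The study itself reports that its WT and degron lines had much alike RNA-seq patterns when untreated. The labels do not name the clone behind a library, although the study generally used 3 clones per degron group. The study calls its 3 replicates biological, while the labels do not say whether they were separate cultures, and the p-values measure the spread between these libraries.

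Ribosomes are built in the nucleolus. RNA polymerase I transcribes the ribosomal DNA there, small nucleolar ribonucleoproteins (snoRNPs) guide methylation and pseudouridylation of the transcript, the small-subunit processome folds and cuts the precursor of the 40S subunit, and a separate set of factors matures the 60S subunit. The pathway is among the costliest of a growing cell, and MYC, a transcription factor that is highly active in colorectal cancer, binds the canonical E-box CACGTG at many of its genes.

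The list fell into 6 roles: 4 genes of RNA polymerase I transcription, 3 abundant nucleolar proteins with several tasks, 8 snoRNP proteins, 15 of the small-subunit processome, 5 late 40S factors and 15 factors of the 60S subunit. RefSeq promoter windows on GRCh38.p14, from 250 bases before the start site to 50 after it, were at hand for 41 of the 50. The E-box CACGTG, which reads the same on both strands, was found in 16 of these 41 windows (39.0%), against 10.1% of the 11938 windows of genes tested. The letters CCGGAAGT, an ETS-type motif searched on both strands, were in 10 of 41 (24.4%) against 7.92%. Neither motif contains the other. The median GC content of the windows was 64.0%, against 65.0% for genes tested. In 5 of the 16 windows an E-box lay wholly upstream of the start site. In the others it spanned the start site (RRP9, at base -5) or lay after it, up to base 35 (NOP2). Stretches of 30 bases upstream of the start site show the E-box, in capitals, as it stands in those 5 promoters. Each is written 5′ to 3′ on the strand of its gene.
UTP20, chr12:101280075-101280104, plus strand: gcgccgttcttttttccgtcCACGTGaccc
UTP18, chr17:51260445-51260474, plus strand: gggagtgctggtCACGTGgcaagaggctgc
UTP4, chr16:69132619-69132648, plus strand: tgagagcgcgcgcgCACGTGgggccggggc
EBNA1BP2, chr1:43172790-43172819, minus strand: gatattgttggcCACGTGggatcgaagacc
NOP10, chr15:34343137-34343166, minus strand: caggaaggaaattgacgaaCACGTGacgcg
A match describes letters in the window, not binding. Of these 5 genes, UTP20 and UTP18 fell and NOP10 rose in the double line on day 8 (log2 fold changes -1.02, -0.62 and 0.43), while UTP4 and EBNA1BP2 stood at -0.16 and -0.12, neither past the test. In the same comparison the median log2 fold change was -0.19 over the 16 members with an E-box and -0.37 over the 25 without one. Of the 9 comparisons with WT, 2 had the opposite order, UHRF1-AID on day 6 (-0.28 with and -0.23 without) and the double line on day 2 (-0.24 and -0.23).

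Library totals ran from 21074536 to 37175136 counts with a median of 25031562.5. Of the epithelial markers, EPCAM (at least 215 CPM, counts scaled to a common library size by TMM), KRT8 (at least 1379 CPM), CDX2 (17.9 to 154 CPM) and VIL1 (7.89 to 17.2 CPM) were present in all libraries. CDX1 was at most 3.47 CPM, with 0 in 11 libraries, and CDH17 at most 0.746 CPM. Of the 12 markers of blood, fibroblast and endothelial cells, COL1A1 ran from 2.04 to 82.2 CPM and each of the others stayed below the lowest VIL1 value. The summed level of these 12 markers on day 8 was 20.7 to 24.1 CPM for WT, 34.9 to 40.4 for UHRF1-AID, 24 to 25 for DNMT1-AID and 39.8 to 51.3 for the double line, and its part in the results was not tested. Both lines with the DNMT1 degron had less DNMT1 mRNA than WT on every day, and it was lower in UHRF1-AID on day 2 too (-0.71 on the log2 scale, adjusted p = 0.0148). The UHRF1 mRNA passed the test in 1 of 9 comparisons with WT, the double line on day 8 (by -1.29 on the log2 scale, adjusted p = 7.29e-05). Since degradation is of protein, neither value checks the depletion. Of the pairs of replicates within a group, the 4 that hold UHRF1-AID replicate 2 on day 6 or 8 stood farthest apart, with a chi-square per degree of freedom of 40.8 to 56.3 against at most 37.5 in the other pairs. Mitochondrial transcripts took a mean of 9.60% of the counts in the double line on day 8, against 3.39% in WT. In bulk RNA, fewer cells of a kind and less RNA per cell cannot be told apart.

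In WT the members spanned a wide range of levels. On day 2, expressed as CPM per kilobase of exon, NPM1, a histone chaperone and nucleolar scaffold, stood highest at 139.6 ± 7.95 (SD, n = 3). NHP2, a protein of the H/ACA snoRNP, followed at 133 ± 11, which lies within the spread of NPM1. NOP10, its partner, had a level per kilobase of 77.9 ± 3.09 and FBL, the methyltransferase of the C/D snoRNP, 73 ± 1.17 CPM per kilobase. At the other end stood POLR1A, the largest subunit of RNA polymerase I, at 1.2 ± 0.117 CPM per kilobase and UTP20, a large scaffold of the processome, at 1.37 ± 0.102. The ranges of mean ± SD of this pair overlapped. Length here is the union of a gene's exons, and the order per kilobase depends on it. NPM1 has 8311 such bases and stood at 1160 CPM on day 2, against 1476 bases and 196 CPM for NHP2. Mean levels over all libraries ran from 15.6 CPM (UTP20) to 857 CPM (NPM1), with a median of 73.0 CPM against 23.6 CPM for all genes tested. Because the members are well expressed, shares of all tested genes are joined below by shares among the 9212 genes whose mean level was at least that of UTP20.

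In the UHRF1-AID cells the members mostly moved down. On day 2, 15 of the 50 fell and 0 rose against WT (adjusted p under 0.05, edgeR quasi-likelihood test), where 14.4% of all genes tested fell, 12.1% rose, and 19.3% of the 9212 genes of comparable level fell. The median log2 fold change was -0.12, against 0.007 over all genes. On day 6, 23 fell and 0 rose, with 10.5% and 14.3% of all genes and 13.3% of comparable genes falling, and a median of -0.24. At an unadjusted p under 0.05, 0 members were higher on day 2 and 0 on day 6, and DESeq2 also called 0 higher on both days. On day 8, 23 fell and 3 rose, against 21% and 24.2% of all genes and 27.5% of comparable genes falling, with a median of -0.25. The share of members that fell was above both backgrounds on each of the 3 days.

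The DNMT1-AID cells gave a different picture. On day 2, 0 members fell and 0 rose, where 0.714% and 2.67% of all genes did. At an unadjusted p under 0.05, 6 were lower and 2 higher, and DESeq2 called 0 in either direction. On day 6 a single member fell, NOC3L, and 0 rose, against 4.35% of all genes falling and 8.84% rising, both shares below the background. At an unadjusted p under 0.05, 3 were lower and 2 higher, and DESeq2 called 2 lower and 0 higher. On day 8, 13 fell and 9 rose, close to the 22.4% and 25.1% of all genes, and the median was -0.051 against 0.021. That split rests on the scaling. With library size only, which moved the median of all genes by -0.17, 26 members fell and 5 rose in DNMT1-AID on day 8, so the share of calls that rose went from 40.9% to 16.1%. The median of the members relative to that of all genes changed little, from -0.072 to -0.082. The count that rose was 14 without DNMT1-AID replicate 1.

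In the double line more members fell than rose on each day. On day 2, 25 fell and 1 rose, against 11.5% and 16.3% of all genes and 14.4% of comparable genes falling, with a median of -0.24. Without WT replicate 1 of that day, 16 fell. On day 6, 32 fell and 1 rose, against 21.9% and 19% of all genes and 28.8% of comparable genes falling, with a median of -0.27. Without replicate 2 of the double line, 21 fell. On day 8, 27 fell and 8 rose, against 32.8% and 35.7% of all genes and 42.3% of comparable genes falling, and the median was -0.26 against 0.033. The 9 comparisons share the WT libraries of each day and are therefore given side by side, not as independent evidence of one another.

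**Figure D1:**
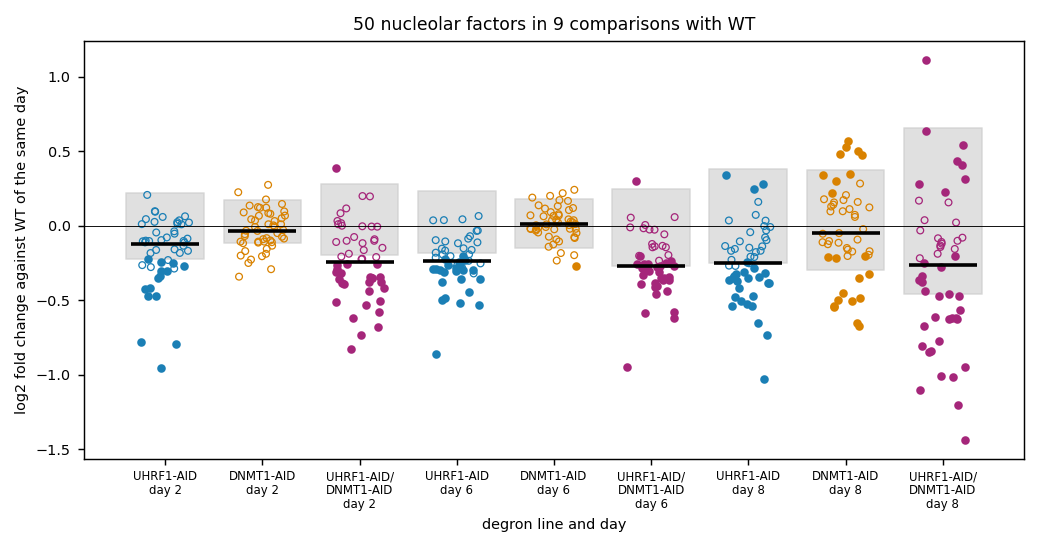
Log2 fold change of the 50 members (points, filled where the adjusted p was under 0.05) against WT of the same day in the 9 groups of degron line and day, with the median of the members as a black line and the middle 50% of all genes tested as a grey box. The median of the members lies at -0.26 in the double line on day 8 and at 0.01 in DNMT1-AID on day 6, and the spread of the members is widest in the double line on day 8.

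**Figure D2:**
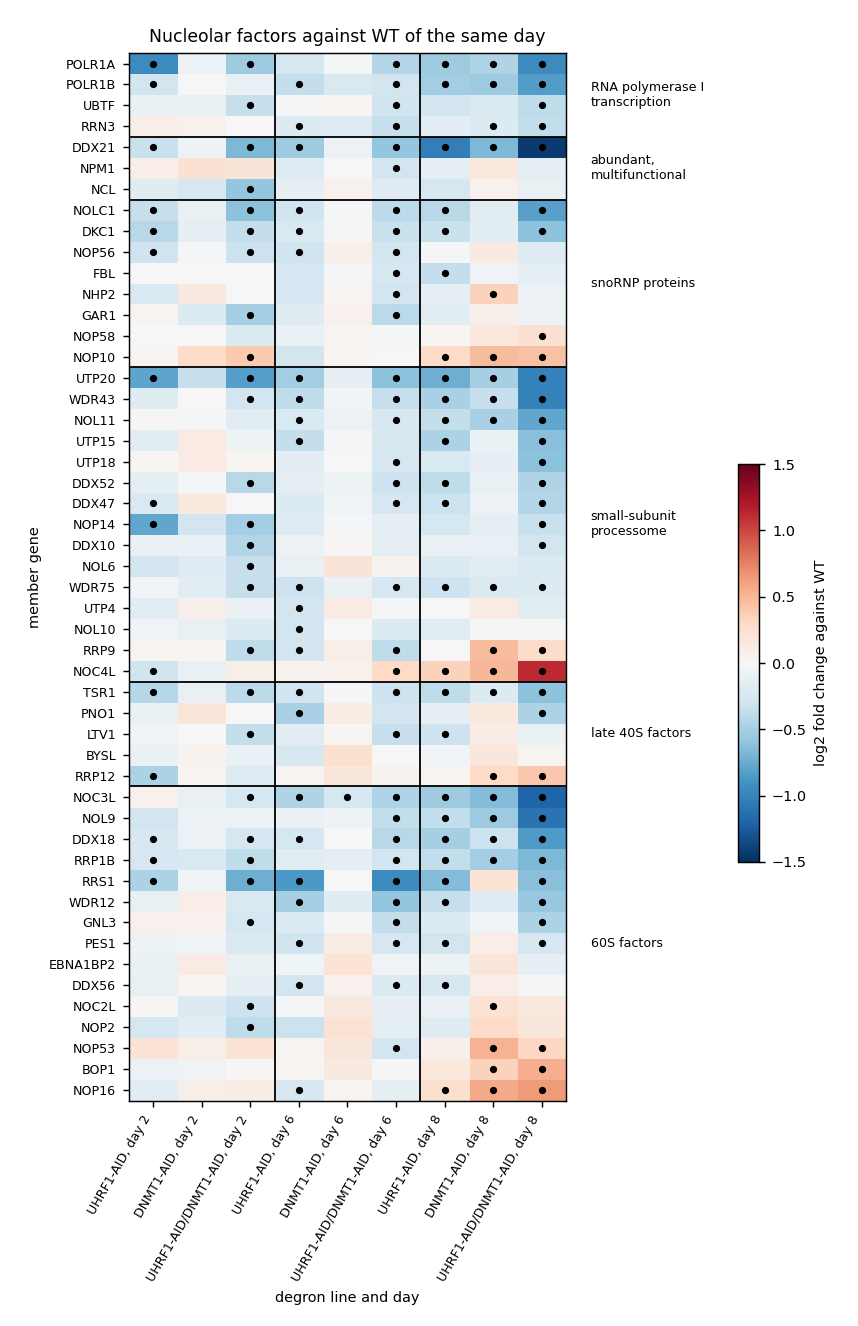
Log2 fold change of each member (lines of the map, ordered by role) against WT of the same day in each degron line and day (columns), from blue for lower to red for higher, with a dot where the adjusted p was under 0.05. The RNA polymerase I genes and most 60S factors are blue in the double line on day 8, while NOC4L, NOP16 and BOP1 are red there.

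The RNA polymerase I genes come first in the pathway. POLR1A (ENSG00000068654.17, chr2:86020216-86106155 on GRCh38) encodes the largest catalytic subunit. On day 2 POLR1A stood at 26.3, 22.3 and 22.4 CPM for WT, 9.86, 10.1 and 16.6 for UHRF1-AID, 17.4, 26.7 and 22.8 for DNMT1-AID and 18.4, 16.2 and 14.5 for the double line. On day 6 POLR1A was at 83.4, 80.9 and 73.7 CPM for WT, 72.8, 57.9 and 69.3 for UHRF1-AID, 79.3, 80.1 and 75 for DNMT1-AID and 56.4, 52.7 and 66.6 for the double line. By day 8 POLR1A reached 54.5, 70.8 and 56.9 CPM for WT, 46.7, 39.7 and 39.1 for UHRF1-AID, 42.3, 40.9 and 49.9 for DNMT1-AID and 33.5, 31.9 and 28.9 for the double line. The UHRF1-AID and double-line libraries all lay below WT on days 2, 6 and 8, and the DNMT1-AID libraries did so on day 8. On day 6 the difference of UHRF1-AID did not pass the test (-0.25, adjusted p = 0.201). POLR1A fell in UHRF1-AID on day 2 (log2 fold change -0.95 ± 0.16 SE, adjusted p = 2.72e-05) and by the same amount in the double line on day 8 (log2 fold change -0.95 ± 0.15 SE, adjusted p = 1.05e-06). It also fell in UHRF1-AID on day 8 (log2 fold change -0.54 ± 0.14 SE, adjusted p = 0.00274). In DNMT1-AID on day 8 its log2 fold change was -0.45 ± 0.14 (adjusted p = 0.00968), a call that was lost without WT replicate 2 (-0.33, adjusted p = 0.0879) or DNMT1-AID replicate 2 (-0.40, 0.0506). The double line passed on days 2 and 6 at -0.53 (adjusted p = 0.0126) and -0.44 (adjusted p = 0.0127). These calls were lost without WT replicate 1 (-0.45, adjusted p = 0.0744) or double-line replicate 3 (-0.45, adjusted p = 0.0711) on day 2, and without double-line replicate 2 on day 6 (-0.37, adjusted p = 0.0694).

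POLR1B (ENSG00000125630.16, chr2:112541915-112579818) encodes the other large catalytic subunit. On day 2 POLR1B stood at 67.8, 71.5 and 65.2 CPM for WT, 59.8, 56.6 and 52.8 for UHRF1-AID, 63.8, 73.6 and 66 for DNMT1-AID and 61, 70.9 and 56.8 for the double line. On day 6 POLR1B was at 49.8, 44.1 and 47.1 CPM for WT, 37.2, 38.7 and 34.4 for UHRF1-AID, 39.8, 40.1 and 40.1 for DNMT1-AID and 42.6, 34.7 and 39.7 for the double line. By day 8 POLR1B came to 46.9, 50.6 and 48.9 CPM for WT, 36.3, 33.8 and 31.7 for UHRF1-AID, 35.8, 33.9 and 31.1 for DNMT1-AID and 30.2, 25.3 and 26.5 for the double line. All 9 degron libraries of day 8 lay below the 3 of WT. POLR1B fell on day 8 in UHRF1-AID (log2 fold change -0.52 ± 0.088 SE, adjusted p = 9.39e-06), in DNMT1-AID (log2 fold change -0.54 ± 0.088 SE, adjusted p = 7e-06) and in the double line (log2 fold change -0.84 ± 0.09 SE, adjusted p = 4.73e-10). It also passed in UHRF1-AID on day 2 (-0.27, adjusted p = 0.0176) and day 6 (-0.36, 0.00249), and in the double line on day 6 (-0.27, 0.0127). After correction for GC content and gene length these further calls were lost, at -0.15, -0.18 and -0.01 in that order (adjusted p = 0.147, 0.0944 and 0.933).

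UBTF (ENSG00000108312.15, chr17:44205033-44221626) encodes the factor that bends ribosomal DNA and opens it for RNA polymerase I. On day 2 UBTF stood at 53.6, 47.1 and 46.5 CPM for WT, 41, 37.8 and 58.3 for UHRF1-AID, 44.9, 51.7 and 39.6 for DNMT1-AID and 42.6, 39 and 34.3 for the double line. On day 6 UBTF was at 104, 115 and 115 CPM for WT, 111, 105 and 109 for UHRF1-AID, 117, 116 and 108 for DNMT1-AID and 83.8, 86.1 and 101 for the double line. By day 8 UBTF came to 110.2, 115 and 105 CPM for WT, 102, 75.2 and 96 for UHRF1-AID, 97.7, 100.2 and 88.6 for DNMT1-AID and 80.8, 86.9 and 86.2 for the double line. It fell in the double line on day 8 (log2 fold change -0.38 ± 0.12 SE, adjusted p = 0.00446). UBTF passed there on day 2 at -0.35 (adjusted p = 0.0311), but not without WT replicate 1 (-0.28, adjusted p = 0.151), double-line replicate 2 (-0.35, 0.0663) or double-line replicate 3 (-0.27, 0.161), nor after the GC and length correction (-0.24, 0.056). On day 6 UBTF passed in the double line at -0.30 (adjusted p = 0.0369). That call was lost with DESeq2 (-0.25, 0.0905), with library size only (-0.25, 0.109) and without some single libraries.

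RRN3 (ENSG00000085721.13, chr16:15060033-15094311), also called TIF-IA, links RNA polymerase I to its promoter. On day 2 RRN3 stood at 100.4, 102 and 91.8 CPM for WT, 104, 109.8 and 101 for UHRF1-AID, 93.7, 107 and 107 for DNMT1-AID and 91.2, 104 and 98.1 for the double line. On day 6 RRN3 was at 88.9, 81.9 and 82.5 CPM for WT, 71, 78.7 and 70.4 for UHRF1-AID, 74.9, 69.5 and 76.5 for DNMT1-AID and 69.2, 63.2 and 66.5 for the double line. By day 8 RRN3 came to 80.6, 76.6 and 78 CPM for WT, 67.8, 70.1 and 73.3 for UHRF1-AID, 70.1, 65.2 and 68.5 for DNMT1-AID and 64.3, 55.1 and 63.1 for the double line. RRN3 fell in the double line on day 6 (log2 fold change -0.35 ± 0.073 SE, adjusted p = 0.000243) and on day 8 (log2 fold change -0.37 ± 0.074 SE, adjusted p = 4.95e-05), and its 3 named pseudogenes held 4.49% of its counts. After correction for GC content and gene length the day 8 value was -0.022 (adjusted p = 0.783). RRN3 also passed in UHRF1-AID on day 6 (-0.20, adjusted p = 0.0392). That call was lost after the correction (-0.070, 0.464), with library size only (-0.19, 0.0735) and without some single libraries. Of the 4 genes of this role, 4 fell and 0 rose in the double line on day 8, with a median of -0.61, 3 fell in DNMT1-AID and 2 in UHRF1-AID. The shares of all genes that fell in these comparisons were 32.8%, 22.4% and 21%. The DNMT1-AID count includes RRN3 (-0.21, adjusted p = 0.0197), whose call ended after the GC and length correction (-0.049, 0.586), without WT replicate 1 (-0.19, 0.0689) and without DNMT1-AID replicate 2 (-0.18, 0.0846).

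Among the abundant multifunctional proteins, DDX21 (ENSG00000165732.13, chr10:68956135-68985068), an RNA helicase that binds both ribosomal RNA and promoters of ribosomal genes, showed the lowest log2 fold change of all members in UHRF1-AID, DNMT1-AID and the double line on day 8. On day 2 DDX21 stood at 165, 135 and 138 CPM for WT, 120.2, 119.6 and 107 for UHRF1-AID, 126, 158 and 132 for DNMT1-AID and 91.7, 95.9 and 86.2 for the double line. On day 6 DDX21 was at 149, 140.0 and 146 CPM for WT, 105, 108 and 87.9 for UHRF1-AID, 130.2, 151 and 128 for DNMT1-AID and 97.4, 87.5 and 107 for the double line. By day 8 DDX21 came to 146, 139 and 135 CPM for WT, 71.9, 71.8 and 62.2 for UHRF1-AID, 87.9, 91.5 and 85.1 for DNMT1-AID and 54.5, 45.3 and 55.7 for the double line. On day 8 all 9 degron libraries lay below WT, and those of the double line lay below all others. DDX21 fell in UHRF1-AID (log2 fold change -1.03 ± 0.098 SE, adjusted p = 2.13e-10), in DNMT1-AID (log2 fold change -0.67 ± 0.098 SE, adjusted p = 9.89e-07) and in the double line (log2 fold change -1.44 ± 0.10 SE, adjusted p = 1.95e-14), where its level was 0.369 of WT. It had already fallen on day 2 in UHRF1-AID (log2 fold change -0.34 ± 0.097 SE, adjusted p = 0.0084) and in the double line (log2 fold change -0.68 ± 0.098 SE, adjusted p = 2.82e-06). On day 6 it was lower in both as well, at -0.53 and -0.58 (adjusted p = 7.64e-05 and 1.2e-05). In DNMT1-AID on days 2 and 6 the log2 fold changes were -0.073 and -0.091 (adjusted p = 0.742 and 0.607).

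NCL (ENSG00000115053.17, chr2:231453531-231483641) encodes nucleolin, which binds the precursor rRNA. On day 2 NCL stood at 407, 318 and 279 CPM for WT, 249.6, 291 and 344 for UHRF1-AID, 255, 319.6 and 269 for DNMT1-AID and 229, 232 and 209 for the double line. On day 6 NCL was at 625, 589 and 668 CPM for WT, 557, 645 and 534 for UHRF1-AID, 647, 684 and 645 for DNMT1-AID and 545, 510.4 and 587 for the double line. By day 8 NCL came to 652, 643 and 651 CPM for WT, 579, 509.8 and 545 for UHRF1-AID, 624, 694 and 709.7 for DNMT1-AID and 591, 583 and 631 for the double line. NCL fell in the double line on day 2 (log2 fold change -0.58 ± 0.11 SE, adjusted p = 0.000111), and on day 8 its log2 fold change there was -0.11 (adjusted p = 0.373).

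NPM1 (ENSG00000181163.14, chr5:171387116-171411810), nucleophosmin, was measured on day 2 at 1106, 1234 and 1141 CPM for WT, 1315, 1272 and 1129 for UHRF1-AID, 1244, 1361 and 1464 for DNMT1-AID and 1232, 1374 and 1385 for the double line. On day 6 NPM1 was at 610.1, 578 and 626 CPM for WT, 499, 574 and 515 for UHRF1-AID, 596, 605 and 617 for DNMT1-AID and 504, 488 and 502 for the double line. By day 8 NPM1 came to 798, 707 and 755 CPM for WT, 659, 732 and 662 for UHRF1-AID, 731, 911 and 883 for DNMT1-AID and 687, 609 and 751 for the double line. NPM1 fell in the double line on day 6 (log2 fold change -0.28 ± 0.087 SE, adjusted p = 0.0098), and the sign turned after correction for GC content and gene length (0.055). On day 8 the log2 fold change against WT was -0.14 for UHRF1-AID, 0.16 for DNMT1-AID and -0.14 for the double line, none past the test. After that correction the double line was at 0.50 (adjusted p = 5.06e-06) for NPM1 and 0.41 (adjusted p = 0.00128) for NCL, opposite in sign to the uncorrected values. DNMT1-AID was then at 0.53 (adjusted p = 7.59e-06) for NPM1 and 0.38 (adjusted p = 0.00496) for NCL. In UHRF1-AID the corrected values of day 8 were 0.20 (adjusted p = 0.0535) for NPM1 and 0.042 (adjusted p = 0.776) for NCL. NPM1 has 49 named pseudogenes, which held 3.18% of its counts.

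The snoRNP proteins divide into the C/D class, which methylates rRNA, and the H/ACA class, which makes pseudouridine. FBL (ENSG00000105202.9, chr19:39834458-39846379) was at 159, 155 and 155 CPM for WT, 153, 167 and 151 for UHRF1-AID, 145, 162 and 160.1 for DNMT1-AID and 134, 160.0 and 172 for the double line on day 2. On day 6 FBL was at 83.4, 74.1 and 78.2 CPM for WT, 59.1, 71.9 and 66.9 for UHRF1-AID, 69.5, 87.3 and 73.9 for DNMT1-AID and 60.4, 62.8 and 73.9 for the double line. By day 8 FBL came to 99.7, 107 and 101 CPM for WT, 81, 83.8 and 75.9 for UHRF1-AID, 86.3, 110.4 and 100.3 for DNMT1-AID and 90.9, 83.8 and 105 for the double line. FBL fell in UHRF1-AID on day 8 (log2 fold change -0.35 ± 0.10 SE, adjusted p = 0.00454) and was at -0.049 in DNMT1-AID and -0.13 in the double line, neither past the test. After the GC and length correction the DNMT1-AID value passed at -0.41 (adjusted p = 0.000188), and that of UHRF1-AID was -0.64 (adjusted p = 1.5e-07). FBL also passed in the double line on day 6 (-0.26, adjusted p = 0.0379). That call was lost with DESeq2 (-0.21, 0.0994), with library size only (-0.22, 0.0758) and without some single libraries.

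NOP56 (ENSG00000101361.17, chr20:2652593-2658393), a core protein of the C/D class, was at 122, 123 and 114 CPM for WT, 91.7, 96.6 and 103 for UHRF1-AID, 111, 124 and 117 for DNMT1-AID and 95.3, 98.8 and 94.4 for the double line on day 2. On day 6 NOP56 was at 121, 118 and 116 CPM for WT, 103, 86.7 and 98.8 for UHRF1-AID, 126, 127 and 122 for DNMT1-AID and 103, 91.3 and 100.3 for the double line. By day 8 NOP56 came to 124, 119.9 and 117 CPM for WT, 115, 120.4 and 117 for UHRF1-AID, 131, 144 and 119.8 for DNMT1-AID and 129, 100.3 and 87.8 for the double line. NOP56 fell in the double line on day 2 (log2 fold change -0.32 ± 0.091 SE, adjusted p = 0.00797). In UHRF1-AID it passed on day 2 (-0.30, adjusted p = 0.0111) and on day 6 (-0.30, adjusted p = 0.0129). Those calls were lost without UHRF1-AID replicate 1 on day 2 (-0.26, adjusted p = 0.061) and replicate 2 on day 6 (-0.23, 0.0942). NOP56 also passed in the double line on day 6 (-0.27, adjusted p = 0.0152). That call was lost with library size only (-0.23, 0.059) and without double-line replicate 2 (-0.22, 0.0854). No comparison of NOP56 with WT passed on day 8.

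DKC1 (ENSG00000130826.18, chrX:154762742-154777689), the pseudouridine synthase dyskerin, was at 114, 121 and 117 CPM for WT, 86.2, 88 and 89 for UHRF1-AID, 98.5, 112 and 111 for DNMT1-AID and 87.1, 92.1 and 95.7 for the double line on day 2. On day 6 DKC1 was at 73.4, 67.7 and 72.8 CPM for WT, 56.2, 68.7 and 57.9 for UHRF1-AID, 70.5, 73.7 and 66.2 for DNMT1-AID and 56.3, 53.4 and 60.7 for the double line. By day 8 DKC1 came to 91.5, 88.5 and 88.2 CPM for WT, 73, 69.4 and 70.3 for UHRF1-AID, 77.1, 83.8 and 77.3 for DNMT1-AID and 57.2, 53.9 and 63.5 for the double line. DKC1 fell in UHRF1-AID on day 2 (log2 fold change -0.42 ± 0.075 SE, adjusted p = 4.86e-05) and in the double line on day 8 (log2 fold change -0.62 ± 0.075 SE, adjusted p = 8.66e-09), with no overlap between the double line and WT on day 8. It also passed in the double line on days 2 and 6 (-0.36 and -0.33, adjusted p = 0.000469 and 0.000652). In UHRF1-AID it passed on days 6 and 8 (-0.23 and -0.33, adjusted p = 0.0245 and 0.00043). After the GC and length correction these further calls were lost, at -0.16, -0.11, -0.073 and -0.079 in that order (adjusted p from 0.133 to 0.538). The UHRF1-AID call of day 6 was also lost on omitting single libraries.

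NOP10, a small H/ACA protein, went the other way. On day 2 NOP10 was at 117, 127 and 124 CPM in WT and 152, 163 and 166 in the double line, and on day 8 at 64.1, 65.4 and 66.9 CPM for WT, 68.6, 95.4 and 74.8 for UHRF1-AID, 75.9, 106 and 92.4 for DNMT1-AID and 91.6, 80.2 and 93.8 for the double line. It rose in the double line on day 2 (log2 fold change 0.39 ± 0.10 SE, adjusted p = 0.00531), with no overlap. On day 8 NOP10 passed in UHRF1-AID at 0.28 (adjusted p = 0.0281), and that call was lost without UHRF1-AID replicate 2 (0.13, adjusted p = 0.342), WT replicate 1 (0.27, 0.0765) or WT replicate 2 (0.28, 0.064), with library size only (0.21, 0.0728) and after the GC and length correction (0.20, 0.0556). Its log2 fold changes were 0.48 in DNMT1-AID (adjusted p = 0.000331) and 0.43 in the double line (adjusted p = 0.000495). After GC and length correction the day 2 value was 0.14 (adjusted p = 0.221). Of the 8 snoRNP genes, 6 fell in the double line on day 6, where 21.9% of all genes and 28.8% of comparable genes did. On day 8 2 fell and 2 rose, and both shares were below the 32.8% and 35.7% of all genes.

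Of the 15 processome genes, 4 fell in UHRF1-AID on day 2, 8 on day 6 and 7 fell at day 8. For the double line 8 fell on day 2, 8 on day 6 and 10 on day 8, where the median was -0.34. In DNMT1-AID on day 8 4 fell and 2 rose, where 22.4% of all genes and 27.3% of comparable genes fell. Among comparable genes 19.3%, 13.3% and 27.5% fell in UHRF1-AID on the 3 days and 14.4%, 28.8% and 42.3% in the double line. UTP20 was at 12.6, 14 and 14.6 CPM for WT, 9.32, 7.08 and 7.35 for UHRF1-AID, 10.3, 11.4 and 10.7 for DNMT1-AID and 6.6, 9.84 and 6.82 for the double line on day 2 and at 20.4, 21 and 16.6 CPM for WT, 10.7, 11.3 and 12.7 for UHRF1-AID, 13.9, 14.3 and 12.7 for DNMT1-AID and 11.8, 7.56 and 9.34 for the double line on day 8. UTP20 fell in UHRF1-AID (log2 fold change -0.80 ± 0.15 SE, adjusted p = 9.62e-05) and the double line (log2 fold change -0.83 ± 0.15 SE, adjusted p = 0.000104) on day 2, with no overlap with WT. It remained below WT in UHRF1-AID on day 6 (log2 fold change -0.52 ± 0.13 SE, adjusted p = 0.00433) and day 8 (log2 fold change -0.74 ± 0.14 SE, adjusted p = 5.77e-05), and in the double line on day 6 (log2 fold change -0.62 ± 0.14 SE, adjusted p = 0.000403). NOP14, which holds the processome's 3′ parts together, was at 25.8, 17.2 and 20.0 CPM for WT and 11, 10.6 and 15 for UHRF1-AID on day 2, without overlap. It fell by 0.78 on the log2 scale in that comparison (SE 0.14, adjusted p = 9.17e-05). An antisense gene, NOP14-AS1, overlaps 20.7% of its exon length.

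NOC4L, the partner of NOP14 in the processome, was the member with the highest log2 fold change in the double line on day 8 before correction for GC content. It was at 40.8, 36 and 38.4 CPM for WT, 27.5, 31.1 and 34.8 for UHRF1-AID, 32.8, 36.9 and 37.2 for DNMT1-AID and 42.2, 38.8 and 41.3 for the double line on day 2 and at 42.4, 47 and 48 CPM for WT, 56, 59.5 and 58.9 for UHRF1-AID, 58.2, 67.3 and 69.7 for DNMT1-AID and 94.7, 92.6 and 111 for the double line on day 8. On day 8 all 9 degron libraries lay above WT, and the double line lay above all others. NOC4L rose in UHRF1-AID (log2 fold change 0.34 ± 0.09 SE, adjusted p = 0.00229), in DNMT1-AID (log2 fold change 0.50 ± 0.09 SE, adjusted p = 2.56e-05) and in the double line (log2 fold change 1.12 ± 0.091 SE, adjusted p = 8.35e-13). On day 6 it passed in the double line at 0.30 (adjusted p = 0.00864), but not without WT replicate 2 (0.24, adjusted p = 0.0603) or double-line replicate 3 (0.20, 0.100). The exons of NOC4L hold 64.18% GC, and after correction for GC content and length it was at -0.12 for UHRF1-AID, -0.023 for DNMT1-AID and 0.20 for the double line on day 8, of which the last still passed (adjusted p = 0.0243).

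Of the 5 late 40S factors, 2 fell and 1 rose in the double line (median -0.10), and 2 fell in UHRF1-AID, all on day 8, where 42.3% and 27.5% of comparable genes fell. TSR1, a GTPase-like factor of cytoplasmic 40S maturation, and PNO1, an RNA-binding factor, were the pair that fell in the double line on day 8, at -0.61 and -0.47 (adjusted p = 1.29e-09 and 0.0014). RRP12, an export factor, was the one that rose (0.41, adjusted p = 0.000457). TSR1 overlaps its neighbour SRR over 23.9% of its exon length. TSR1 was named here after its value had been seen.

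Among the 60S factors in the double line on day 8, 8 of 15 fell and 3 rose, with a median of -0.25. In DNMT1-AID 4 fell and 4 rose, and in UHRF1-AID 8 fell and 1 rose. For comparable genes the shares that fell were 42.3% in the double line, 27.3% for DNMT1-AID and 27.5% for UHRF1-AID, so the DNMT1-AID count was near its background. NOC3L, which works with NOC2L in early 60S assembly, was at 34.3, 35.3 and 34 CPM for WT, 35.7, 37.2 and 35.4 for UHRF1-AID, 30.1, 33.5 and 32.7 for DNMT1-AID and 27.7, 31.4 and 27.5 for the double line on day 2, 37.7, 34.3 and 35.7 CPM for WT, 25.7, 27.6 and 25.7 for UHRF1-AID, 29.6, 31.3 and 28.6 for DNMT1-AID and 27.2, 26.2 and 24.9 for the double line on day 6 and 38.4, 32.4 and 32.7 CPM for WT, 22.2, 25.1 and 23.8 for UHRF1-AID, 22.4, 20.8 and 22.4 for DNMT1-AID and 16.3, 12.9 and 15.8 for the double line on day 8. Double-line libraries of day 8 lay below all others, and NOC3L fell there (log2 fold change -1.20 ± 0.087 SE, adjusted p = 5.83e-14) and in DNMT1-AID (log2 fold change -0.65 ± 0.085 SE, adjusted p = 1.4e-07). NOC3L also fell in UHRF1-AID on day 6 (-0.45, adjusted p = 0.000114) and on day 8 (-0.54, adjusted p = 3.21e-06). It was the single member called in DNMT1-AID on day 6 (log2 fold change -0.27 ± 0.084 SE, adjusted p = 0.029), and that call was lost without WT replicate 1 (-0.23, adjusted p = 0.142), WT replicate 3 (-0.27, 0.0726), DNMT1-AID replicate 1 (-0.26, 0.0825) or DNMT1-AID replicate 3 (-0.24, 0.125), with all gene types (-0.25, 0.0632) and after the GC and length correction (-0.15, 0.187).

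NOL9, the kinase that prepares the internal spacer for removal, was on day 8 at 27.1, 25.5 and 24.2 CPM for WT, 23.2, 17.9 and 18.5 for UHRF1-AID, 17.4, 15.9 and 19.2 for DNMT1-AID and 12.9, 9.36 and 13.4 for the double line. Every degron library lay below WT. NOL9 fell in DNMT1-AID (log2 fold change -0.55 ± 0.12 SE, adjusted p = 0.000299) and in the double line (log2 fold change -1.11 ± 0.12 SE, adjusted p = 1.11e-09). It also passed in UHRF1-AID (-0.37, adjusted p = 0.0111), a call lost after the GC and length correction (-0.21, 0.128). RRS1, which brings the 5S particle into the 60S precursor, stood at 28.4, 31.6 and 30.3 CPM for WT, 16.6, 17.3 and 15.8 for UHRF1-AID, 28.3, 34 and 28.6 for DNMT1-AID and 13.3, 13.9 and 19.9 for the double line on day 6 and 47.2, 44.3 and 45.3 CPM for WT, 28.5, 27.6 and 30.9 for UHRF1-AID, 48.4, 58.5 and 50.9 for DNMT1-AID and 28.7, 25.9 and 33.9 for the double line on day 8. The DNMT1-AID values sat with or above WT, while UHRF1-AID and the double line were lower than both on days 6 and 8. RRS1 fell in UHRF1-AID (log2 fold change -0.86 ± 0.14 SE, adjusted p = 2.45e-05 on day 6, log2 fold change -0.65 ± 0.14 SE, adjusted p = 0.000265 on day 8) and in the double line (log2 fold change -0.95 ± 0.14 SE, adjusted p = 2.91e-06 on day 6, log2 fold change -0.63 ± 0.14 SE, adjusted p = 0.000197 on day 8). In DNMT1-AID on day 8 the log2 fold change was 0.21 ± 0.14 (adjusted p = 0.22). RRS1 overlaps another protein-coding gene on the same strand over 11.3% of its exon length. WDR12, of the PeBoW complex with PES1 and BOP1, fell in the double line on day 6 (log2 fold change -0.59 ± 0.095 SE, adjusted p = 6.24e-06), from 43.1, 42.4 and 36.7 CPM in WT to 28, 25.1 and 28.2.

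On the rising side stood NOP16, NOP53 and BOP1. NOP16, an early 60S factor, was at 64.8, 69.7 and 67 CPM for WT, 76.9, 79.9 and 82 for UHRF1-AID, 91.3, 104 and 104 for DNMT1-AID and 104, 103 and 106 for the double line on day 8. All degron libraries of that day lay above WT, and NOP16 rose in UHRF1-AID (log2 fold change 0.25 ± 0.079 SE, adjusted p = 0.0112), in DNMT1-AID (log2 fold change 0.57 ± 0.079 SE, adjusted p = 4.41e-07) and in the double line (log2 fold change 0.63 ± 0.079 SE, adjusted p = 1.37e-08). NOP53, which docks the exosome on the 60S precursor, rose in DNMT1-AID (log2 fold change 0.53 ± 0.11 SE, adjusted p = 0.000276), from 209.9, 182 and 209.8 CPM in WT to 262, 320.3 and 285. BOP1 rose in the double line (log2 fold change 0.54 ± 0.11 SE, adjusted p = 7.62e-05), from 129, 132 and 142 CPM in WT to 169, 186 and 232. BOP1 exons hold 65.57% GC, and the corrected value was -0.063 (adjusted p = 0.572). For NOP16 the corrected value in the double line was 0.55 (adjusted p = 5.01e-07). NOP16 overlaps ARL10 over 12.3% and HIGD2A over 6.31% of its exon length, both on the opposite strand.

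**Figure D3:**
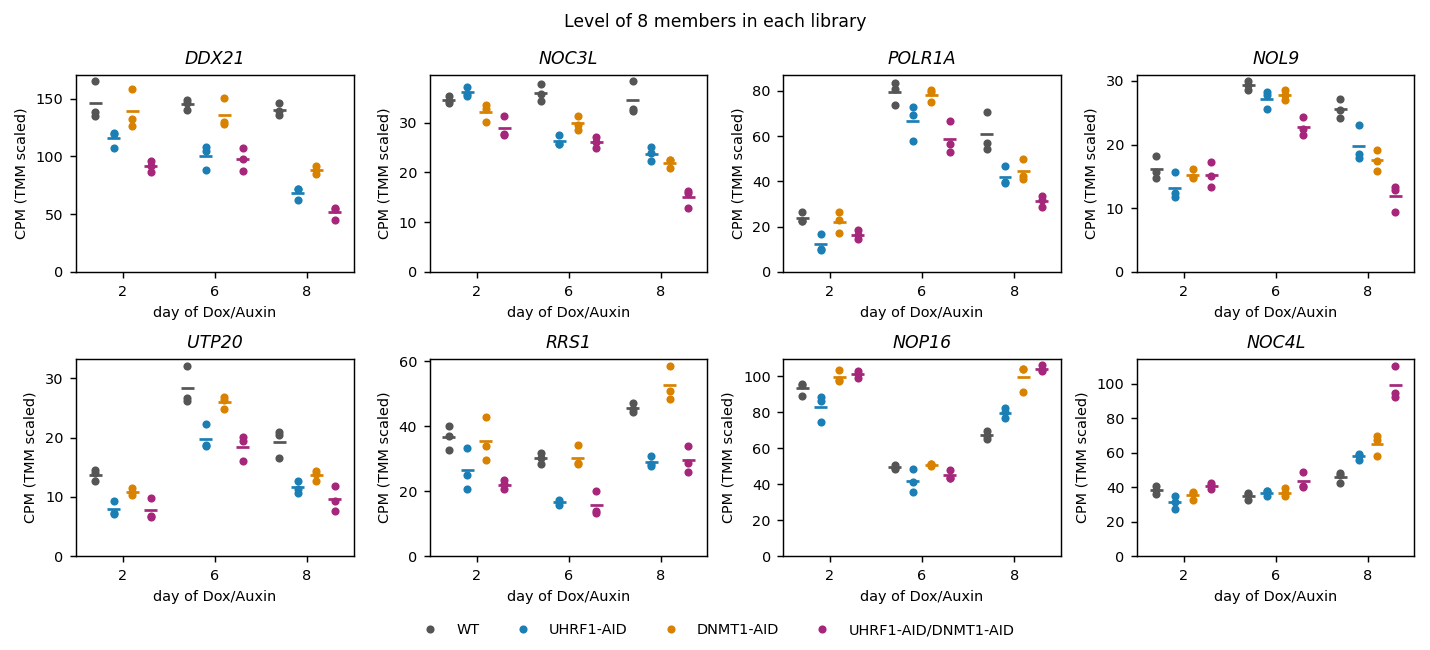
Level in CPM (TMM scaled) of 8 members in each of the 36 libraries (points, coloured by line) by day of Dox/Auxin, with the group mean as a line. DDX21, NOC3L and NOL9 lie lowest in the double line on day 8 and NOC4L highest, while RRS1 separates UHRF1-AID and the double line from WT and DNMT1-AID on days 6 and 8.

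Compared with each other on day 8, the lines differed at many members. UHRF1-AID was lower than DNMT1-AID at 19 of 50 and higher at 0, against 8.24% and 10.0% of all genes and 11.2% of comparable genes lower, with a median of -0.19. This count was 8 with library size only and 10 without UHRF1-AID replicate 3 or DNMT1-AID replicate 2. At an unadjusted p under 0.05, 0 members were higher in UHRF1-AID, as by DESeq2. RRS1 differed most (log2 fold change -0.86 ± 0.14 SE, adjusted p = 5.89e-05), followed by NHP2 (log2 fold change -0.48 ± 0.098 SE, adjusted p = 0.000903) and RRP9, which binds the U3 snoRNA (log2 fold change -0.48 ± 0.085 SE, adjusted p = 0.0002). NHP2 stood on day 8 at 92.5, 104 and 94.8 CPM for UHRF1-AID and 119.7, 150.1 and 136 for DNMT1-AID, and RRP9 at 48.7, 45.5 and 46.8 and 61.2, 70.0 and 65, both without overlap. NHP2 shares 28% of its exon length with RMND5B on the opposite strand, and the counting is not stated to use strand, so the reads of both cannot be told apart there.

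The double line was lower than UHRF1-AID at 16 members and higher at 8, against 23.5% and 20.4% of all genes and 32.1% of comparable genes lower, so the share lower was at the comparable background. The 8 that were higher became 4 without double-line replicate 3, and with library size only 22 were lower and 4 higher, so the share of calls that were higher went from 33.3% to 15.4%. NOL9 (log2 fold change -0.74 ± 0.12 SE, adjusted p = 1.08e-05), NOC3L (log2 fold change -0.67 ± 0.088 SE, adjusted p = 2.91e-07) and WDR43, a component of the UTP-A subcomplex (log2 fold change -0.53 ± 0.081 SE, adjusted p = 3.46e-06), were lowest. WDR43 was at 68.7, 70.0 and 69.2 CPM for WT, 51.1, 52.6 and 45.2 for UHRF1-AID, 53.7, 58.2 and 51.3 for DNMT1-AID and 36.2, 32.6 and 34.4 for the double line, which overlapped no other line. NOC4L (log2 fold change 0.77 ± 0.089 SE, adjusted p = 3.36e-08) and NOP16 (log2 fold change 0.39 ± 0.079 SE, adjusted p = 0.000154) were higher in the double line. Against DNMT1-AID the double line was lower at 26 members and higher at 1, with 24% and 22.2% of all genes and 33.8% of comparable genes lower. RRS1 (log2 fold change -0.83 ± 0.14 SE, adjusted p = 1.22e-05), DDX21 (log2 fold change -0.77 ± 0.099 SE, adjusted p = 1.57e-07) and WDR43 (log2 fold change -0.66 ± 0.081 SE, adjusted p = 6.23e-08) were lowest, and NOC4L was the one that was higher (log2 fold change 0.61 ± 0.089 SE, adjusted p = 1.23e-06).

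The difference from WT changed between days 2 and 8 for some members, tested as the change in log2 fold change from day 2 to day 8. In UHRF1-AID 3 members went lower and 3 higher (7.09% and 10.7% of all genes), in DNMT1-AID 5 and 4 (9.28% and 7.05%), and in the double line 14 and 10 (22.6% and 16.1%). For the double line, NOC3L went from -0.26 on day 2 to -1.20 on day 8, a change of -0.94 ± 0.12 (adjusted p = 2.14e-07). NOC4L went from 0.084 to 1.12, a change of 1.03 ± 0.13 (adjusted p = 1.38e-07). POLR1B went from -0.12 to -0.84 (change -0.72 ± 0.12, adjusted p = 2.07e-05).

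WT cells, which carry no degron, also changed between days, and the days of treatment cannot be told apart from the days on which libraries were made. From day 2 to day 6, 28 members fell and 12 rose, against 32.1% and 35.7% of all genes and 45.1% of comparable genes falling. The median was -0.29 against 0.067. With library size only, which moved the median of all genes by 0.29, 23 fell and 18 rose. From day 2 to day 8, 24 fell and 14 rose (29.7% and 30.1% of all genes, 40.7% of comparable genes falling). Library size only gave 18 and 18 there, and after correction for GC content and gene length 13 fell and 14 rose, with a median of -0.022. From day 6 to day 8 the direction turned, with 23 rising and 2 falling, against 17.6% and 17% of all genes and 27.8% of comparable genes rising. Library size only gave 13 rising.

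By name, NHP2 fell in WT from 177, 207 and 204 CPM on day 2 to 68.2, 79.7 and 69.9 on day 6 (log2 fold change -1.43 ± 0.10 SE, adjusted p = 1.66e-14). NOP10 fell from 117, 127 and 124 CPM to 44.8, 46.1 and 46.8 (log2 fold change -1.42 ± 0.11 SE, adjusted p = 1.06e-13) and PNO1 from 56.6, 62.1 and 57 CPM to 25.7, 26.4 and 21.7 (log2 fold change -1.25 ± 0.13 SE, adjusted p = 6.57e-11). None of these overlapped between the days. On the rising side, POLR1A increased (log2 fold change 1.74 ± 0.15 SE, adjusted p = 6.43e-12), as did NOP14 from 25.8, 17.2 and 20.0 CPM to 66.1, 62.8 and 68.1 (log2 fold change 1.64 ± 0.14 SE, adjusted p = 1.28e-12) and UBTF (log2 fold change 1.18 ± 0.12 SE, adjusted p = 9.05e-11), again with no overlap. After correction for GC content and gene length, NHP2 was at -0.98, NOP10 at -0.49 and PNO1 at -0.46. POLR1A was then at 0.71, UBTF at 0.73 and NOP14 at 1.87, and all of these genes still passed. Among the abundant proteins NCL rose by 0.91 and NPM1 fell by 0.94 on the log2 scale over the same days, so that NCL stood at 70.4 ± 4.44 and NPM1 at 72.7 ± 2.96 CPM per kilobase on day 6 (SD, n = 3). Across the 50 members the log2 fold change from day 2 to day 6 had a Spearman correlation of 0.45 with exon length, a description across genes that share libraries.

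**Figure D4:**
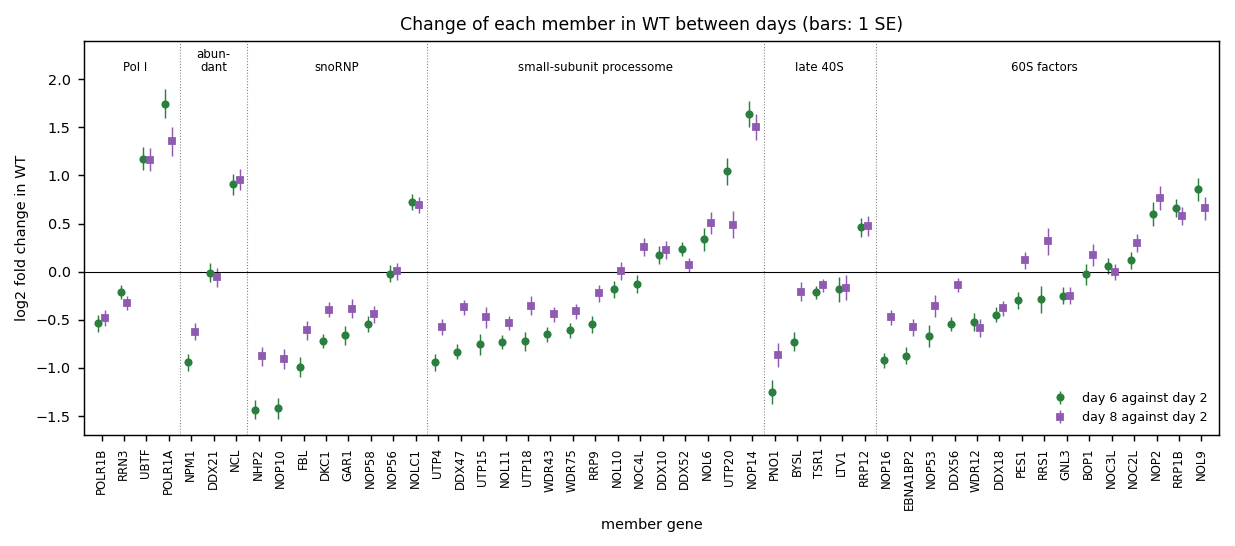
Log2 fold change (± 1 SE) of each member in WT between days, by role, for day 6 against day 2 (circles) and day 8 against day 2 (squares). POLR1A and NOP14 lie highest, and NHP2, NOP10 and PNO1 lowest on day 6, with the day 8 values of these 5 nearer to 0.

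GC content moved with the differences on days 6 and 8. Across the 50 members, the log2 fold change against WT was set against the GC content of the exons by Spearman's correlation. On day 8 it was 0.39 for UHRF1-AID, 0.50 for DNMT1-AID and 0.48 for the double line. On day 6 it was 0.32, 0.62 and 0.30 in that order, and on day 2 -0.23, -0.15 and 0.071. With exon length the day 8 correlations were -0.37, -0.51 and -0.40 in the same order. These describe genes that share libraries and are not replicates. With counts corrected for GC content and gene length, 20 of the 27 members that fell in the double line on day 8 kept the call, and 5 of the 8 that rose did. Of the remaining calls, 2 that fell and 1 that rose were called in the opposite direction. In UHRF1-AID on day 8, 15 of 23 that fell kept the call, and in DNMT1-AID 7 of 13 that fell and 4 of 9 that rose. DDX21 in the double line was at -0.87 after correction (adjusted p = 1.11e-09), NOC3L at -0.73 (adjusted p = 1.01e-09) and POLR1A at -0.81 (adjusted p = 8.48e-08), all smaller than before, while RRS1 at -1.33 (adjusted p = 2.79e-10) was larger.

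**Figure D5:**
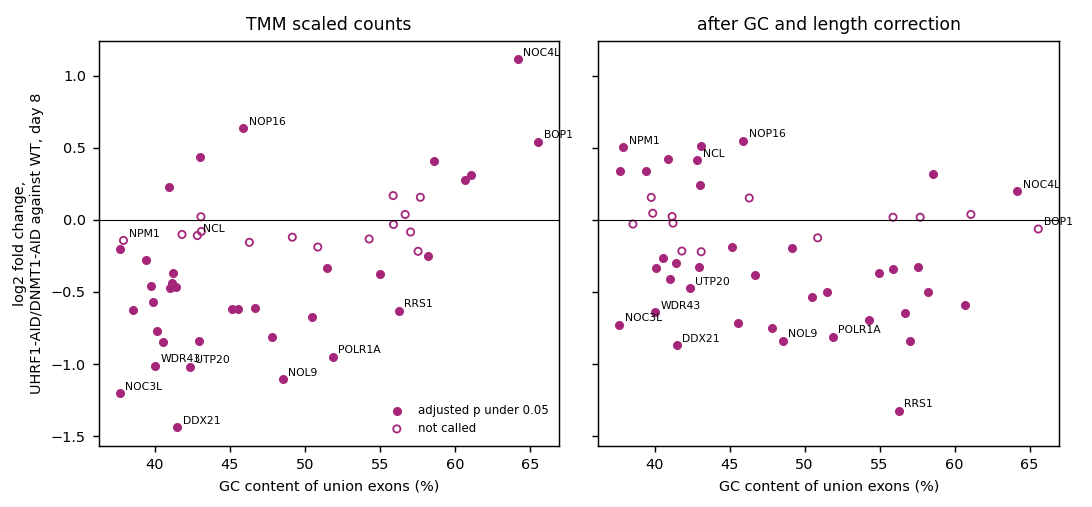
Log2 fold change of the 50 members in the double line against WT on day 8 by GC content of their exons (percent), with TMM scaled counts on the left and after correction for GC content and gene length on the right. Filled points had an adjusted p under 0.05. NOC4L and BOP1, at 64.18% and 65.57% GC, lie nearer to 0 after correction, and DDX21 and NOC3L stay below 0.

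Introns of 9 members hold 27 snoRNAs in all, with 6 in GNL3, 5 in NOP56 and 4 in NOP58. Of these hosts, 6 fell in the double line on day 2, 7 on day 6 and 5 on day 8, when 2 rose and the median was -0.47. Of the other 41 members, 19, 25 and 22 fell on these days, with a median of -0.25 on day 8. Of all genes 11.5%, 21.9% and 32.8% fell on these days, and of comparable genes 14.4%, 28.8% and 42.3%. On day 8 35.7% of all genes rose. The share that fell on day 8 was near the same for the hosts and the other members. The snoRNAs themselves are short and not polyadenylated, and they were not measured here.

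Other genes of the pathway were counted beside the members. Of 101 further ribosome biogenesis factors, 24 fell in UHRF1-AID on day 2, 33 on day 6 and 39 on day 8, and 0, 1 and 5 rose. For the double line 36, 42 and 52 fell and 2, 3 and 20 rose, with a median of -0.25 on day 8. In DNMT1-AID 2, 0 and 23 fell and 1, 2 and 26 rose. Genes of the 78 cytoplasmic ribosomal proteins were counted as well. On day 2 76 of them rose in the double line and 0 fell, while on day 6 41 fell and 0 rose. On day 8, 59 rose and 1 fell in DNMT1-AID, and 30 rose and 12 fell in the double line. In WT all 78 fell from day 2 to day 6 (median -1.63), where 32.1% of all genes fell.

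MYC mRNA was lower than in WT on day 2 in UHRF1-AID (log2 fold change -0.90, adjusted p = 4.62e-05), day 6 (-0.79, adjusted p = 0.00023) and day 8 (-0.62, adjusted p = 0.00126). It was lower in the double line on day 2 (-0.66, adjusted p = 0.00177), day 6 (-0.73, adjusted p = 0.000283) and day 8 (-1.34, adjusted p = 9.87e-09). In DNMT1-AID the values were -0.0035, -0.19 and -0.35 (adjusted p = 1, 0.46 and 0.059). Of 18 proliferation genes, 18 fell on day 8 for UHRF1-AID, 17 for DNMT1-AID and 18 for the double line, with medians of -0.80, -0.76 and -1.43. The part of MYC, of proliferation and of the mitochondrial share in the values of the members was not tested.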

How the data were processed

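Bulk polyA RNA-seq libraries (36, 3 for each of 12 groups of line and day) were analysed. The authors trimmed reads with Trim Galore, aligned them to hg38 with STAR and counted them with featureCounts, and the deposited files hold raw counts per gene. The annotation release, the strand setting and the treatment of multimapping reads are not given in the sources used here, so reads shared with overlapping genes or pseudogenes may be split differently.

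Of 60648 gene IDs, 60462 matched GENCODE v44 (positions on GRCh38) and 19942 were protein-coding. Genes were filtered with filterByExpr (minimum count 10), scaled with TMM factors, and all 36 libraries entered 1 fit of the robust quasi-likelihood test of edgeR 4.0.16 in R 4.3.3, with 1 mean per group and 24 residual degrees of freedom. P-values were two-sided and adjusted by Benjamini-Hochberg over the 15415 genes of each of 18 comparisons. Calls of a rise or fall needed an adjusted p under 0.05 and no minimum fold. CPM per kilobase used union exon length. The fit was tested on simulated counts.

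The members, role groups and other lists were chosen with earlier results of these data known. Named members were NCL, NPM1, FBL, NOP56, DKC1, POLR1A, POLR1B, UBTF and RRN3, the 3 lowest and 3 highest called log2 fold changes of each comparison, and the 3 smallest p-values per direction for the change from day 2 to day 8. Members named in comparisons other than those that chose them are given for completeness. Alternatives were library size only, DESeq2 1.42.0, no filter, all gene types, a spline correction for GC content and gene length, the libraries of each comparison only, the replicate number as a block, and leaving out each of the 36 libraries. Same-numbered replicates deviated from their group means with correlations from -0.06 to 0.13, so the numbers were not taken as pairs.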

Additional observations from a re-analysis of the deposited data

Results flagged for a closer look

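For each of the 3 degron lines, the difference from WT was tested for a change between day 2 and day 8 (edgeR quasi-likelihood test of the interaction, Benjamini-Hochberg over 15415 genes), and the members below differed between the days. In each line the share of members called was near or below that of comparable genes. Log2 changes from day 2 to day 8 are given, and explanations were not weighed.

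In UHRF1-AID, NOC3L changed by -0.60 (adjusted p = 0.000425), DDX21 by -0.69 (adjusted p = 0.000443) and NOL11, a processome component of the UTP-A subcomplex, by -0.37 (adjusted p = 0.0138). In the other direction NOC4L changed by 0.65 (adjusted p = 0.000524), RRP12 by 0.51 (adjusted p = 0.0106) and NOP16 by 0.41 (adjusted p = 0.00828). After correction for GC content and gene length, NOC3L, NOL11, NOC4L and RRP12 no longer passed (adjusted p from 0.0888 to 0.631).

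In DNMT1-AID, DDX21 changed by -0.60 (adjusted p = 0.00275), NOC3L by -0.55 (adjusted p = 0.00185) and POLR1B by -0.53 (adjusted p = 0.00319). NOC4L changed by 0.61 (adjusted p = 0.00141), NOP16 by 0.48 (adjusted p = 0.00299) and RRP9 by 0.43 (adjusted p = 0.0137). After the correction, NOP16 alone of these 6 passed (log2 change 0.48, adjusted p = 0.00715).

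In the double line, NOC3L changed by -0.94 (adjusted p = 2.14e-07), WDR43 by -0.72 (adjusted p = 5.13e-06), POLR1B by -0.72 (adjusted p = 2.07e-05) and RRN3 by -0.36 (adjusted p = 0.00579). NOC4L changed by 1.03 (adjusted p = 1.38e-07), RRP9 by 0.66 (adjusted p = 6.21e-05) and NOP16 by 0.52 (adjusted p = 0.000359). NCL changed by 0.47 (adjusted p = 0.0129), a call lost without WT day 2 replicate 1 (0.30, adjusted p = 0.101). NPM1 changed by -0.34 (adjusted p = 0.027), and 6 of the 12 single-library omissions ended that call: WT day 2 replicate 1 (-0.31, adjusted p = 0.0666) and replicate 3 (-0.33, 0.0525), double-line day 2 replicate 2 (-0.32, 0.0625) and replicate 3 (-0.31, 0.0691), WT day 8 replicate 1 (-0.30, 0.0754) and double-line day 8 replicate 2 (-0.26, 0.108). After correction for GC content and gene length RRP9, RRN3 and NPM1 no longer passed (adjusted p = 0.304, 0.69 and 0.569), and the sign of NPM1 turned (0.10).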

How the results depend on the processing

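With library size only, the counts of members that moved by more than 1.5 times were 4 that fell in DNMT1-AID on day 2, 3 that fell there on day 6, 21 that fell in the double line on day 6, 5 that rose and 26 that fell in DNMT1-AID on day 8, 5 that rose in the double line on day 8, 1 higher and 8 lower in UHRF1-AID when set against DNMT1-AID, 4 higher in the double line than in UHRF1-AID, 13 rising and 5 falling between WT days 6 and 8, and 10 and 8 going lower from day 2 to day 8 in UHRF1-AID and DNMT1-AID. NOP56 and RRN3 then turned to 0.27 and 0.076 in WT from day 2 to day 6. That scaling moved the median of all genes by -0.11 and -0.13 in DNMT1-AID and the double line on day 2, -0.17 and -0.19 in the same lines on day 8, 0.11 between UHRF1-AID and DNMT1-AID, -0.11 for the double line against UHRF1-AID, and 0.29, 0.17 and -0.12 in WT for day 6 against 2, 8 against 2 and 8 against 6. Relative to all genes the members of the double line on day 8 stayed at -0.30.

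After the GC and length correction, the counts were 1 that rose in UHRF1-AID on day 2, 0 that fell in DNMT1-AID on day 6, 0 that rose in the double line on day 6, 3 higher in the double line than in DNMT1-AID, 13 that fell in WT from day 2 to day 8 and 1 from day 6 to day 8, 5 going lower in UHRF1-AID, and 2 going higher and 0 going lower in DNMT1-AID. It turned NOC4L to -0.11 (double line, day 6), -0.12 (UHRF1-AID, day 8) and -0.023 (DNMT1-AID, day 8). NPM1 went to 0.055 and 0.50 in the double line on days 6 and 8, to 0.30 for the double line against UHRF1-AID and to 0.10 for its change from day 2 to day 8. BOP1 went to -0.063 and NCL to 0.41 in the double line on day 8, and RRN3 to 0.26 and 0.088 in WT on days 6 and 8 against day 2. Of 235 gene values, 173 kept direction and call, 15 gained a call, 36 lost it and 11 turned.

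Fitted on the libraries of the comparison only, 1 rose in UHRF1-AID and 2 in the double line on day 2, 4 rose and 3 fell in DNMT1-AID on day 6, 10 were lower in UHRF1-AID when set against DNMT1-AID, 9 lower in the double line than in UHRF1-AID, and 4 falling between WT days 6 and 8. DESeq2 gave 2 that fell in DNMT1-AID on day 6. With all gene types, 0 fell there and 1 between WT days 6 and 8. With the replicate number as a block, 5 went lower in UHRF1-AID from day 2 to day 8, and no named gene lost its call. The cause of these shifts was not tested.

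Leaving out single libraries gave 16 to 23 that fell in the double line on day 2, 0 to 1 that rose and 0 to 1 that fell in DNMT1-AID on day 6, 0 to 1 that rose and 21 to 34 that fell in the double line on day 6, 6 to 14 that rose in DNMT1-AID on day 8, 10 to 21 lower in UHRF1-AID when set against DNMT1-AID, 4 to 12 higher in the double line than in UHRF1-AID, and 1 to 2 that fell in WT from day 6 to day 8. For the change from day 2 to day 8 it gave 3 to 5 higher (5 without UHRF1-AID day 2 replicate 3) and 3 to 5 lower (5 without UHRF1-AID day 8 replicate 2) in UHRF1-AID, and 3 to 7 higher in DNMT1-AID (7 without DNMT1-AID day 8 replicate 1). The cause was not tested. With 3 libraries per group and members down to a mean of 15.6 CPM, small differences may have been missed.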
